A study of Mus musculus with 6 samples.

Results

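The 52 genes described here encode the machinery that makes ribosomes in the nucleolus, together with the transcription factor MYC and its obligate partner MAX. They were taken by gene symbol from the 55487 genes of each library, and all 52 were found and passed the filter on low counts. The libraries came from C57BL/6 mouse CD8+ T cells, which are the cytotoxic T lymphocytes. In 3 libraries the cells had been kept with 5 mM itaconate, a dicarboxylic acid made by activated macrophages, and in the 3 control libraries with NaCl, in both cases for 48 h. The labels give no genotype besides the strain, no age, and no information on how the cells were isolated or activated. They also do not give the source of each replicate (its own mouse or culture), and a p-value here therefore reflects library-to-library spread that could be technical.

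A ribosome begins as a long precursor RNA that RNA polymerase I transcribes from the ribosomal DNA. Small nucleolar ribonucleoproteins (snoRNPs) modify this RNA, the small-subunit (SSU) processome folds and cuts the part that becomes the 40S subunit, and a separate set of factors assembles the pre-60S particle. MYC, bound to MAX at the sequence CACGTG, called an E-box, is known to raise many of these genes when T cells are activated and start to grow.

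The expected counts of the libraries summed to between 18280217 and 23609543 in itaconate libraries and between 20469874 and 31643408 in control libraries. Levels are CPM, counts relative to the library total scaled with edgeR's TMM factors, or the deposited TPM, a length-corrected level, where genes are compared with each other, and a gene is called changed at an adjusted p under 0.05 in edgeR's quasi-likelihood test with Benjamini-Hochberg adjustment over 12350 genes. All 9 T cell markers examined (Cd3d, Cd3e, Cd3g, Cd8a, Cd8b1, Trac, Trbc1, Trbc2 and Lck) were present, at mean levels of 127 to 984 TPM, and their summed level was 2666 to 2714 CPM in itaconate libraries and 2426 to 2520 CPM in control libraries. Of these, Cd8a was called higher (0.38 ± 0.05 on the log2 scale, edgeR adjusted p 0.000297) and the other 8 did not pass. Of 19 markers of other cells, 11 passed the filter. The summed level of all 19 was 29.6 to 39.8 CPM in itaconate libraries and 17.2 to 26.8 CPM in control libraries. The myeloid markers Csf1r and Adgre1 and the natural killer marker Ncr1 were near 0, and Siglech was at 0 in every library. The 1 of these markers called was Foxp3, the regulatory T cell factor, at 15.04, 11.0 and 11.2 CPM in itaconate libraries against 2.598, 1.55 and 1.46 CPM in control libraries. Its part in the results below was not tested.

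The E-box is shown first because it is the sequence that MYC with MAX is known to bind. RefSeq promoter windows (mouse build GRCm38.p6, 250 bases before to 50 after the start site) were at hand for 44 of the 52 genes, and 11 of the 44 (25.0%) held CACGTG, a palindrome that reads alike on both strands. Among all genes of the table the share was 8.09% (2187 of 27025), among genes tested here 12.05% (1102 of 9145), and among the other ribosome biogenesis genes described further below 17.6% (22 of 125). In 8 of the 11 genes the motif began after the start site, counted as base 1. This held for 18.18% of the 44 genes, 8.8% (11 of 125) of the other ribosome biogenesis genes and 1.96% of the tested genes. The 30 bases around each of the 11 motifs are given 5′ to 3′ on the gene's strand, with the E-box in capitals.
Utp20 (chr10:88826765-88826794, minus strand): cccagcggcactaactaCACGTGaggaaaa
Tsr1 (chr11:74898092-74898121, plus strand): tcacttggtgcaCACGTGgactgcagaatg
Utp4 (chr8:106893643-106893672, plus strand): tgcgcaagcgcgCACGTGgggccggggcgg
Wdr43 (chr17:71616220-71616249, plus strand): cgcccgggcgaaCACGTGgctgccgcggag
Pno1 (chr11:17211540-17211569, minus strand): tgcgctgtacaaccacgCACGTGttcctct
Ltv1 (chr10:13193092-13193121, minus strand): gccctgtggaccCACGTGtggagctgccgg
Utp18 (chr11:93885769-93885798, minus strand): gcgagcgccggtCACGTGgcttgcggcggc
Pes1 (chr11:3963965-3963994, plus strand): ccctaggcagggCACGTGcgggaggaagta
Nop2 (chr6:125131811-125131840, plus strand): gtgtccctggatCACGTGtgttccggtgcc
Mybbp1a (chr11:72441347-72441376, plus strand): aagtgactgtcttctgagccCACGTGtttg
Max (chr12:76962234-76962263, minus strand): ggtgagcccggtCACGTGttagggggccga

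The motif began between base -60 (Nop2) and base 41 (Mybbp1a) relative to the RefSeq start site. That site is not always the gene start in GENCODE M21. The distance from the GENCODE start was largest for Rrp9 (1346 bases), Ubtf (-1120), Heatr1 (348) and Wdr43 (320), where minus means upstream. For Rrp9, Ubtf and Heatr1 the lack of a motif therefore holds for the RefSeq window only. Of the 11 genes, Utp20 was called lower with itaconate and the other 10 did not pass. Over all genes 5.36% were called lower and 12.0% in either direction. The median log2 fold change (itaconate over control) was -0.07 for the 11 genes with the motif, 10 of them with a negative value, and -0.03 for the 33 genes without it, 20 of them with a negative value. Of the 11, Utp20, Tsr1, Utp4, Wdr43, Pno1, Ltv1 and Utp18 belong to the SSU processome and pre-40S group described below. That group's median was -0.09, with 14 of 17 values negative. The split by motif is thus in part a split by role, and the part of each was not tested. A match to the letters is a description and not a measured binding site. No window was at hand for Myc, Npm1, Fbl, Bop1, Rrp12, Rrs1, Tcof1 and Gnl2.

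Other genes of the set held no CACGTG in the window. For Ncl, Nop56 and Polr1b, chosen as an abundant nucleolar protein, a snoRNP core protein and a polymerase subunit, the 100 bases before the RefSeq start site (GRCm38.p6, gene strand) are given for comparison. None of them holds CACGTG or the variant CACGCG on either strand.
Ncl (chr1:86359456-86359555, minus strand): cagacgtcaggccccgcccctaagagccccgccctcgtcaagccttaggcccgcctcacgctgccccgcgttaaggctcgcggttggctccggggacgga
Nop56 (chr2:130274312-130274411, plus strand): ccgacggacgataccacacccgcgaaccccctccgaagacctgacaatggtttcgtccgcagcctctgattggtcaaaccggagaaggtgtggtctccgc
Polr1b (chr2:129100896-129100995, plus strand): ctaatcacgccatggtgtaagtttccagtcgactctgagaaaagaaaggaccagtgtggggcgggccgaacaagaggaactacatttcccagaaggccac

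The nucleolar genes were abundant in these cells and their levels were close in both groups. Of the 52 genes, 1 was called higher with itaconate, 4 were called lower and 47 did not pass the test, which makes 9.615% called, against 12.0% of all 12350 genes tested (6.68% higher and 5.36% lower). Among the 3352 genes tested whose mean CPM lay within the range of the 52, 16.41% were called. The median log2 fold change of the 52 was -0.05, with 36 negative and 16 positive values, against a median of 0.01 over all genes. DESeq2 called the same 5 genes. The changes ran from -0.25 (Utp20) to 0.21 (Nop10, which did not pass and was at 0.09 without control replicate 1), and 25.6% of all genes had an absolute log2 fold change larger than that of Utp20. For 49 of the 52 genes (94.23%) the 95% interval of the change lay within 1.25-fold in either direction, which held for 45.64% of all genes. The 12350 genes include many at lower levels than the 52, and the share of such intervals at like level was not computed. The itaconate values lay wholly above the control values for 4 genes and wholly below them for 11 genes, and overlapped for 37, so that 28.85% did not overlap, against 31.2% of all genes (16.8% above and 14.4% below). In bulk RNA scaled to the library total, fewer cells with a transcript and less of it per cell cannot be told apart, and neither can a change in the total RNA per cell be seen.

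**Figure D1:**
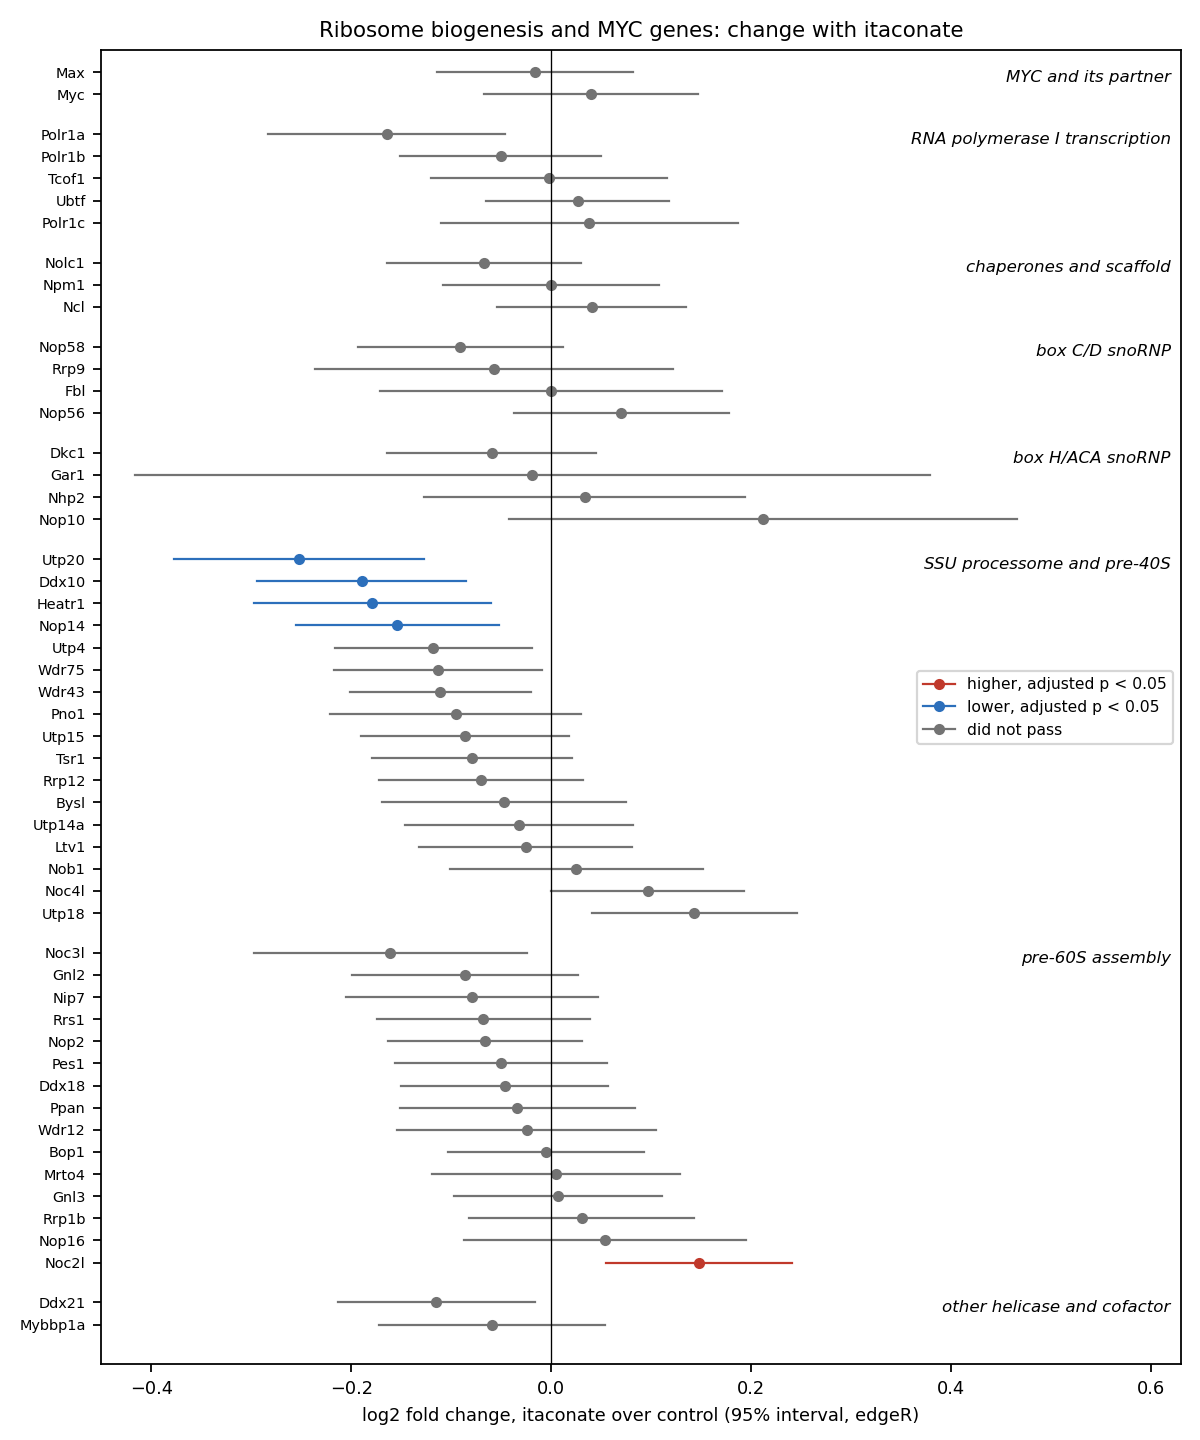
Log2 fold change (itaconate over control) of each of the 52 genes with its 95% interval from edgeR, grouped by role and ordered within a role by size. Red marks the 1 gene called higher (Noc2l), blue the 4 called lower (Utp20, Ddx10, Heatr1 and Nop14), and grey the 47 that did not pass.

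By library, the 52 genes moved little and not evenly. The median deviation of their log2(CPM + 0.5) from the control mean was -0.03, -0.07 and -0.01 in itaconate replicates 1, 2 and 3, against -0.0049, -0.0090 and 0.02 in control replicates 1, 2 and 3. Itaconate replicate 2 lay lowest. Summed over the 52 genes the level was 21020, 20480 and 20800 CPM in itaconate libraries, against 20550, 20620 and 21570 CPM in control libraries. These sums, which the few most abundant genes dominate, overlapped between the groups.

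The mRNA of MYC itself was at like levels in both groups. Myc had 583, 577 and 551 CPM in itaconate libraries, against 555, 585 and 525 CPM in control libraries, and its log2 fold change was 0.04 ± 0.05 (SE), with an edgeR adjusted p of 0.674. The 95% interval of that change ran from -0.07 to 0.15. Max had 148, 143 and 141 CPM in itaconate libraries, against 145, 145 and 146 CPM in control libraries (log2 fold change -0.02 ± 0.05, edgeR adjusted p 0.866). For both genes the groups overlapped.

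The genes around them, which compete with MYC for MAX or bind the same E-boxes, were a list of 17, of which 15 passed the filter. In it 1 gene was called higher and 4 lower (33.33% of 15, against 12.0% of all genes), 10 did not pass, and the median log2 fold change was -0.01. The MXD proteins and MNT pair with MAX and are known as repressors at E-boxes. Mxd3 rose, with 12.1, 12.7 and 13.2 CPM in itaconate libraries, against 10.02, 8.99 and 9.27 CPM in control libraries (log2 fold change 0.42 ± 0.11, edgeR adjusted p 0.0183). Mxi1, also known as Mxd2, fell, with 20.2, 23.0 and 21.5 CPM in itaconate libraries, against 25.5, 27.0 and 27.8 CPM in control libraries (-0.31 ± 0.08, edgeR adjusted p 0.0216). Mxd4 fell at a low level, with 4.16, 4.55 and 3.39 CPM in itaconate libraries, against 6.01, 6.57 and 5.97 CPM in control libraries (-0.62 ± 0.16, edgeR adjusted p 0.0229). For each of these 3 genes the groups did not overlap.

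The other fallers of this list were Mnt and Mga, named because they complete the 4 and so after their values were seen. Mnt had 40.03, 41.6 and 41.9 CPM in itaconate libraries, against 46.6, 52.7 and 46.7 CPM in control libraries (-0.24 ± 0.07, edgeR adjusted p 0.0336). Mga, which encodes a very large MAX-binding protein found in a Polycomb-type repressor complex, had 57.1, 51.8 and 42.1 CPM in itaconate libraries, against 67.7, 63.8 and 60.2 CPM in control libraries (-0.35 ± 0.10, edgeR adjusted p 0.0490). None of the 5 calls held when effective length was modelled or in limma on TPM, while the log2 fold changes with effective length kept their direction (Mxd3 0.42, Mxi1 -0.29, Mxd4 -0.51, Mnt -0.21 and Mga -0.49, adjusted p 0.0807 to 0.246). All 5 were also lost without itaconate replicate 3, and likewise without control replicate 2. Mycl and Mlxipl did not pass the filter.

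**Figure D2:**
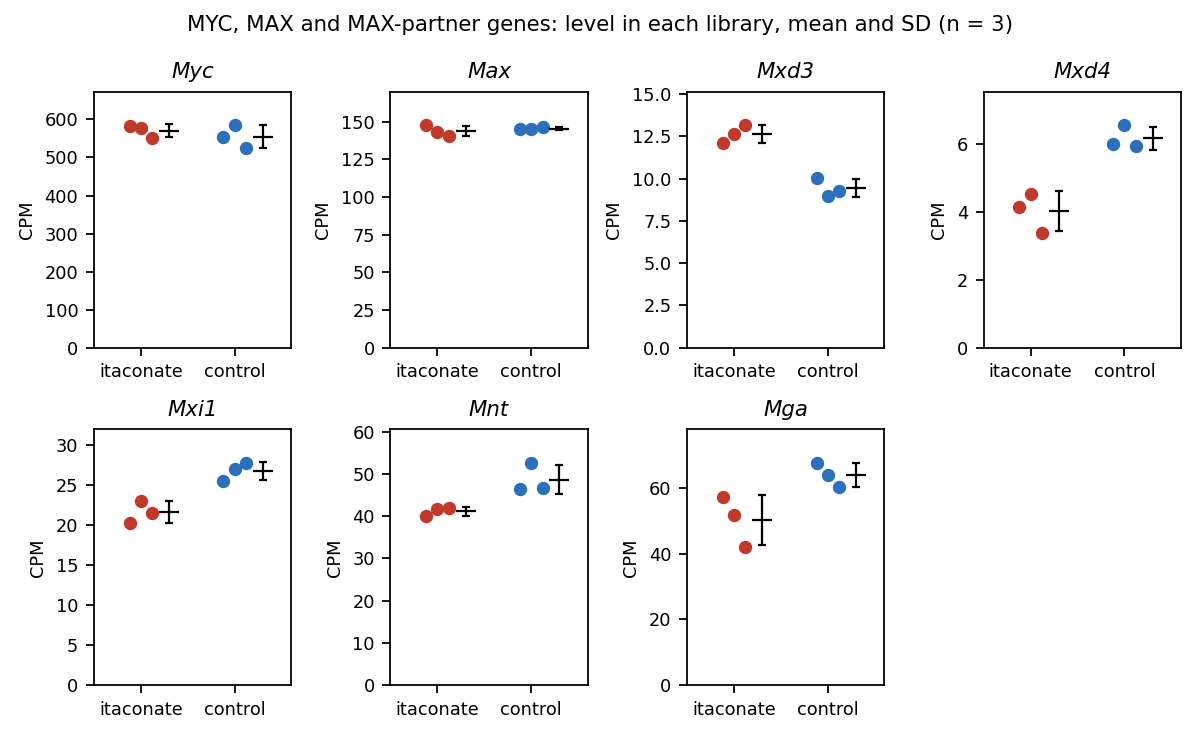
CPM of Myc, Max and the 5 called genes of the MAX network in each library (dots, itaconate in red and control in blue), with mean and SD of 3 libraries. The axes start at 0. Myc and Max overlap between the groups, Mxd3 lies higher with itaconate (12.1 to 13.2 against 8.99 to 10.02 CPM), and Mxd4, Mxi1, Mnt and Mga lie lower.

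RNA polymerase I and its factors did not pass edgeR's test in any of the 5 genes, of which 1 had an unadjusted p under 0.05. Over all genes 12.0% were called and 26.49% had an unadjusted p under 0.05. Polr1a, the largest subunit of the polymerase, came nearest, with 175, 151 and 157 CPM in itaconate libraries, against 185, 179 and 178 CPM in control libraries (log2 fold change -0.16 ± 0.06, edgeR adjusted p 0.0674). Its groups did not overlap, but the itaconate values were spread more widely (SD 12.2 CPM against 3.94 CPM). Polr1a was called without itaconate replicate 1 (adjusted p 0.0177). Polr1b, the second largest subunit, had 163, 156 and 154 CPM in itaconate libraries, against 167, 159 and 163 CPM in control libraries (-0.05 ± 0.05, edgeR adjusted p 0.547). Ubtf, which holds ribosomal DNA in its open state, had 387, 373 and 384 CPM in itaconate libraries, against 369, 378 and 376 CPM in control libraries (0.03 ± 0.04, edgeR adjusted p 0.750). The groups overlapped for Polr1b and Ubtf, as they did for Polr1c, a subunit shared with RNA polymerase III, and for Tcof1, the treacle protein that links the polymerase to pre-rRNA processing.

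The mRNAs of the abundant nucleolar proteins were level. Ncl (nucleolin, an RNA chaperone of the nucleolus) had 4566, 4380 and 4487 CPM in itaconate libraries, against 4335, 4215 and 4511 CPM in control libraries (0.04 ± 0.04, edgeR adjusted p 0.623). Npm1 (nucleophosmin, the main protein of the outer nucleolar zone) had 3497, 3635 and 3536 CPM in itaconate libraries, against 3407, 3441 and 3824 CPM in control libraries (-0.0004 ± 0.05, edgeR adjusted p 0.998). Both overlapped between the groups, and their 95% intervals ran from -0.05 to 0.14 for Ncl and from -0.11 to 0.11 for Npm1. The Npm1 counts were not whole numbers in any of the 6 libraries, so reads shared with other loci were divided, and its level is less certain. Nolc1, a scaffold that shuttles between nucleolus and cytoplasm, did not pass either (-0.07 ± 0.05, edgeR adjusted p 0.378).

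The snoRNP proteins gave no call in edgeR's test among 8 genes, and 0 had an unadjusted p under 0.05, against 12.0% and 26.49% of all genes. Fbl (fibrillarin, the methyltransferase of box C/D snoRNPs) had 453, 505 and 469 CPM in itaconate libraries, against 422, 474 and 529 CPM in control libraries, and its fitted change was 0.0000 ± 0.08 with a 95% interval from -0.17 to 0.17. Nop56 had 727 to 766 CPM in itaconate libraries and 686 to 759 CPM in control libraries, and its partner Nop58 had 379 to 411 CPM in itaconate libraries and 406 to 435 CPM in control libraries. The genes of these core proteins of the same particle had values of opposite sign (0.07 and -0.09), each within the spread of its libraries. As for Npm1, the expected counts of Fbl and Nop56 were not whole in any of the 6 libraries, so their levels are less certain. Dkc1 (dyskerin, the pseudouridine synthase of box H/ACA snoRNPs) had 294, 282 and 310.3 CPM in itaconate libraries, against 320, 302 and 302 CPM in control libraries (-0.06 ± 0.05, edgeR adjusted p 0.483). Nop10, the smallest protein of that particle, had 116, 129 and 119 CPM in itaconate libraries, against 86.5, 112 and 115 CPM in control libraries (0.21 ± 0.11, edgeR adjusted p 0.270). Without control replicate 1, which was lowest, its log2 fold change was 0.09 (adjusted p 0.404), and with no filter on low counts Nop10 was called (adjusted p 0.0062). Gar1, of the same particle, was also lowest in control replicate 1 (142 to 158 CPM in itaconate libraries, against 119 CPM in control replicate 1 and 159 and 176 CPM in control replicates 2 and 3). The intervals of Gar1 (-0.42 to 0.38) and Nop10 (-0.04 to 0.47) were the widest of the set, so for these genes a change of 1.25-fold was not excluded.

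The 4 genes called lower all belong to the SSU processome and pre-40S group, in which 4 of 17 genes (23.53%) were lower, none was higher and 13 did not pass, against 5.36% lower and 12.0% called in either direction over all genes. The group's median log2 fold change was -0.09, with 14 negative and 3 positive values, against 0.01 over all genes. The itaconate values lay wholly below the control values for 8 of the 17 genes and wholly above them for 2, against 14.4% and 16.8% of all genes. By library, the group's median deviation from the control mean was -0.08, -0.11 and -0.07 in itaconate replicates 1, 2 and 3, against -0.0016, -0.0014 and 0.0078 in control replicates 1, 2 and 3. Since the 52 genes and their roles were set with earlier results of these data known, the counts are given without a test over the group.

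Utp20, a giant repeat protein of the processome (minus strand, chr10:88746607-88826804 in GRCm38), had 141, 130.3 and 120.1 CPM in itaconate libraries, against 158, 158 and 150 CPM in control libraries. All itaconate values lay below all control values, and Utp20 fell by 0.25 ± 0.06 on the log2 scale, 1.19-fold (edgeR adjusted p 0.0125). Its call was lost without itaconate replicate 3 (adjusted p 0.0739) or without control replicate 2 (0.0689). In TPM, which divides by effective length, Utp20 had 28.5, 30.8 and 19.9 in itaconate libraries, against 28.7, 27.0 and 31.0 in control libraries, and the groups overlapped. The authors' effective length of Utp20, which depends on the isoforms that reads were assigned to, was 6119, 4957 and 7184 bases in itaconate libraries, against 6967, 7443 and 5864 bases in control libraries. With effective length modelled, the log2 fold change was -0.08 (adjusted p 0.836).

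Ddx10, an RNA helicase of the processome (minus strand, chr9:53098635-53248053 in GRCm38), had 103, 100.2 and 105 CPM in itaconate libraries, against 118, 114 and 119 CPM in control libraries. The groups did not overlap, and Ddx10 fell by 0.19 ± 0.05 on the log2 scale (edgeR adjusted p 0.0216). Its TPM gave the same order without overlap, with 43.9, 40.5 and 43.0 in itaconate libraries, against 52.0, 49.9 and 49.7 in control libraries. Its effective length was nearly the same in all libraries (2869 to 2899 bases). Ddx10 was not called without itaconate replicate 2 (adjusted p 0.0843) or 3 (0.0557), nor with effective length modelled (-0.19, adjusted p 0.0711).

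Nop14, which in yeast brings the methyltransferase Emg1 into the processome (minus strand, chr5:34638536-34660148), had 154, 142 and 152 CPM in itaconate libraries, against 167, 165 and 167 CPM in control libraries (log2 fold change -0.15 ± 0.05, edgeR adjusted p 0.0490). Heatr1, a scaffold of the UTP-A subcomplex that is needed for rDNA transcription as well (plus strand, chr13:12395027-12440289), had 209, 187 and 192 CPM in itaconate libraries, against 234, 221 and 209.9 CPM in control libraries (-0.18 ± 0.06, edgeR adjusted p 0.0493). For both genes the groups did not overlap, with the highest itaconate and the lowest control value of Heatr1 about 1 CPM apart. The call of Nop14 was lost whichever of the 6 libraries was left out (adjusted p 0.0565 to 0.192), and that of Heatr1 without itaconate replicate 2 or 3 or control replicate 1 or 2 (0.132 to 0.189). With effective length modelled Nop14 was still called (-0.22, adjusted p 0.0461), while Heatr1 was at -0.04 (0.705). Exons of Nop14 and Heatr1 overlap an exon on the other strand over 144 and 155 bases (Gm15522 and Lgals8 in GENCODE M21). Whether the counting used strand is not given.

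**Figure D3:**
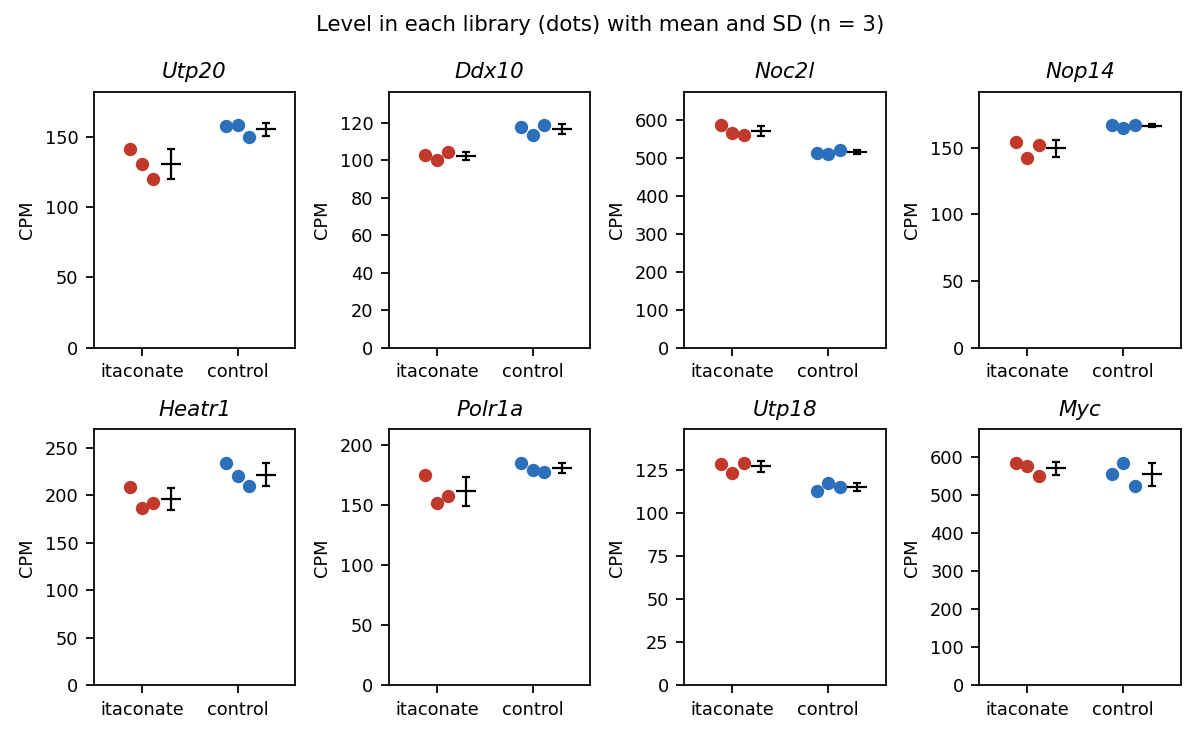
CPM in each library (dots, itaconate in red and control in blue) with mean and SD of 3 libraries for the 5 called genes, for Polr1a and Utp18, whose adjusted p lay between 0.05 and 0.10, and for Myc. The axes start at 0. The groups do not overlap in any panel but that of Myc, and the distances are small beside the levels.

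Utp18, a WD-repeat protein of the UTP-B subcomplex that in yeast brings the RNA exosome to the processome, lay the other way and just missed the threshold. It had 129, 124 and 129 CPM in itaconate libraries, against 113, 118 and 115 CPM in control libraries (0.14 ± 0.05, edgeR adjusted p 0.0661), without overlap. Noc4l, the partner of Nop14 in the processome, also lay higher without overlap, at 238 to 249.5 CPM in itaconate libraries and 220.2 to 234 CPM in control libraries (0.10 ± 0.05, edgeR adjusted p 0.189). Nob1, the nuclease that makes the last cut of small-subunit rRNA, was the remaining gene of the group with a positive value (0.03 ± 0.06, edgeR adjusted p 0.832).

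UTP-A binds the growing transcript first and UTP-B follows, and their subunits were set side by side after the values had been seen. Of the 6 UTP-A subunits (Heatr1, Utp4, Utp15, Wdr43, Wdr75 and Nol11, the last from the wider list), 5 had itaconate values wholly below the control values and all 6 had a negative log2 fold change, with a median of -0.11 and a range from -0.18 to -0.05. Over all genes 14.4% lay wholly below. Heatr1 passed the test and the other 5 did not. Wdr43 had 346, 336 and 344 CPM in itaconate libraries, against 368, 369 and 371 CPM in control libraries (-0.11 ± 0.04, edgeR adjusted p 0.104). Utp4 had 170.0, 163 and 169.9 CPM in itaconate libraries, against 186, 183 and 177 CPM in control libraries (-0.12 ± 0.05, edgeR adjusted p 0.113). The sign of each of the 6 was the same in all 16 alternative analyses, as it was for 5 of the 6 UTP-B subunits (all but Utp6). Of the 6 UTP-B subunits (Utp18, Utp6, Wdr3, Wdr36, Tbl3 and Pwp2), 2 lay wholly below and 2 wholly above, with a median of -0.03 and a range from -0.26 (Wdr3) to 0.14 (Utp18). The difference between the subcomplexes was not tested.

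In the pre-60S group 1 of 15 genes was called higher, none lower and 14 did not pass (6.667% called, against 12.0% of all genes). The group's median log2 fold change was -0.03, with 10 negative values. Noc2l (plus strand, chr4:156236010-156247616) encodes a factor that in yeast brings pre-60S particles out of the nucleolus, and the mouse protein is also known as an inhibitor of histone acetylation. It had 587, 566 and 561 CPM in itaconate libraries, against 515, 510.3 and 521 CPM in control libraries, and rose by 0.15 ± 0.04 on the log2 scale (edgeR adjusted p 0.0393). The groups did not overlap, but the call was lost whichever of the 6 libraries was left out (adjusted p 0.0678 to 0.173) and with library totals alone as scaling (0.0797). Noc2l overlaps exons of Samd11 on the other strand over 598 bases, and its expected counts were not whole in any of the 6 libraries, so its level is less certain than most.

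Noc3l, whose counterpart in yeast pairs with that of Noc2l, was the least abundant gene of the set and lay the other way, at 63.3, 59.0 and 61.8 CPM in itaconate libraries, against 74.2, 66.7 and 64.9 CPM in control libraries (-0.16 ± 0.06, edgeR adjusted p 0.119). The groups did not overlap. The PeBoW complex of Pes1, Bop1 and Wdr12, which is needed for processing of the large-subunit rRNA, gave no call. Bop1 had 255, 239 and 260.0 CPM in itaconate libraries, against 252, 249 and 255 CPM in control libraries (-0.0050 ± 0.05, edgeR adjusted p 0.964), and Pes1 and Wdr12 were at -0.05 and -0.02 (adjusted p 0.578 and 0.842). In TPM, Pes1 lay wholly lower, with 136, 126 and 136 in itaconate libraries, against 172, 158 and 145 in control libraries, and its log2 fold change in limma on log2(TPM + 1) was -0.26 (adjusted p 0.0992). Bop1 also lay lower in TPM, at 129 to 147 in itaconate libraries and 148 to 152 in control libraries (-0.11, adjusted p 0.358 in limma), while Wdr12 overlapped. Neither was called on either scale. The GTPases Gnl2 and Gnl3 (nucleostemin) were at -0.09 and 0.0070 (adjusted p 0.330 and 0.950), and the rRNA methyltransferase Nop2 at -0.07 (0.389), none past the threshold. The remaining 7 genes of the group (Nip7, Rrs1, Ddx18, Ppan, Mrto4, Rrp1b and Nop16) overlapped between the groups.

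Beside these groups stand Ddx21, a helicase that couples rDNA transcription to processing, and Mybbp1a, a nucleolar cofactor that binds transcription factors. Ddx21 had 871, 803 and 862 CPM in itaconate libraries, against 912, 926 and 909 CPM in control libraries, without overlap (-0.11 ± 0.05, edgeR adjusted p 0.124). Mybbp1a had 1023, 897 and 1010 CPM in itaconate libraries, against 1018, 1034 and 1003 CPM in control libraries, and overlapped (-0.06 ± 0.05, edgeR adjusted p 0.524). In both genes itaconate replicate 2 was the lowest of the 6 libraries.

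Levels per length differed far more between the genes than between the groups. Over the 6 libraries the mean ran from 21.3 TPM (Noc3l) to 4258 TPM (Npm1), with a median of 131 TPM. Npm1 averaged 4186 ± 165 TPM in itaconate libraries and 4330 ± 66.3 TPM in control libraries (SD, n = 3 each), and Ncl followed with 1547 ± 80.8 TPM in itaconate libraries and 1562 ± 13.9 TPM in control libraries. Nop56 (916 TPM over all libraries), Fbl (608 TPM), Nop58 (473 TPM), Nhp2 (426 TPM) and Myc (361 TPM) came next. Myc had 357 ± 21.1 TPM in itaconate libraries and 366 ± 31.4 TPM in control libraries, within 1 SD of its neighbour Nolc1 in control libraries (356 ± 16.7 TPM). Genes for proteins of the same particle had unequal mRNA levels, with 252 TPM for Gar1, 201 TPM for Dkc1 and 158 TPM for Nop10. Likewise there were 146 TPM for Pes1, 145 TPM for Bop1 and 75.3 TPM for Wdr12. Protein levels were not measured here. Utp15 (35.2 TPM), Utp20 (27.7 TPM) and Noc3l closed the order.

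**Figure D4:**
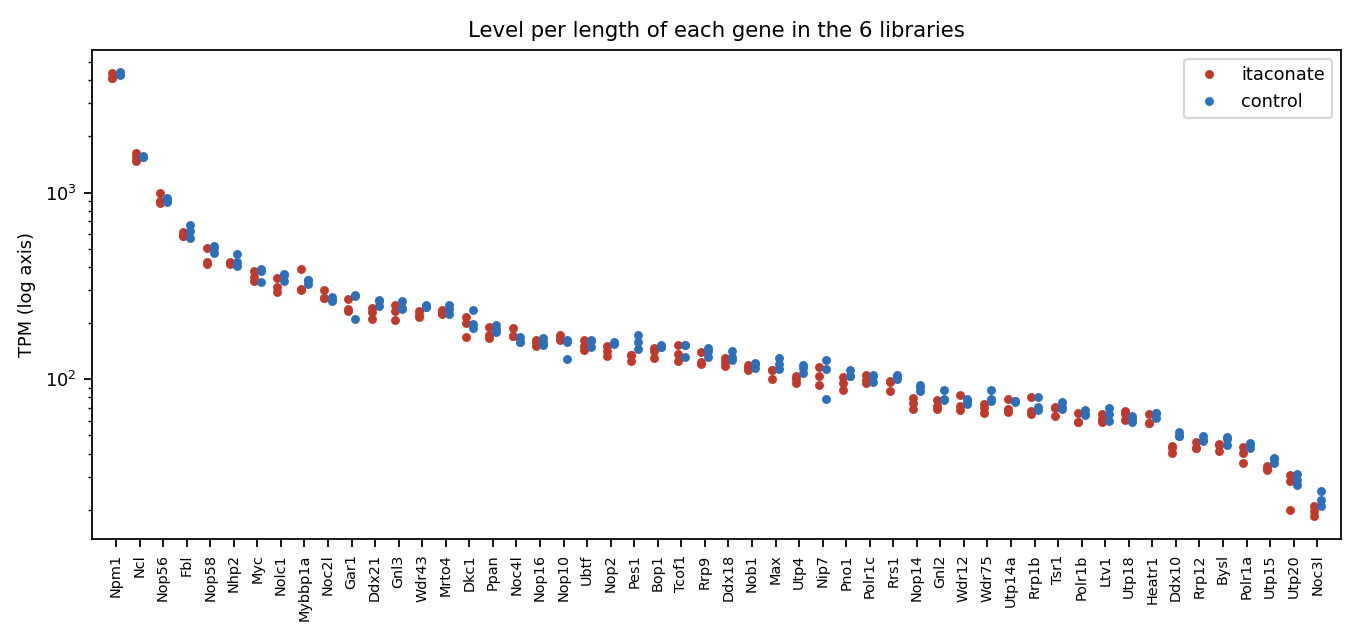
TPM of each of the 52 genes in the 3 itaconate (red, left of the tick) and 3 control libraries (blue, right of the tick) on a log axis, ordered by the mean over all 6. Levels run from 4258 TPM (Npm1) to 21.3 TPM (Noc3l), and the dots of both colours lie close together for most genes.

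Gene length went along with the direction of the small changes. Split at an effective length of 2013 bases, 21 of the 26 longer genes (80.77%) had a negative log2 fold change and a median of -0.07, and 15 of the 26 shorter genes (57.69%) a negative one and a median of -0.02. Over all genes tested the shares were 55.73% of 6503 longer and 40.58% of 5847 shorter genes, with medians of -0.03 and 0.04. Across the 52 genes Pearson's r between log2 effective length and log2 fold change was -0.485, against -0.116 across all genes, which share the same libraries and are not independent. Utp20 and Heatr1 are among the longest genes of the set. They were also the called genes whose change shrank most when effective length was modelled. That model uses only the differences in a gene's effective length between libraries, and the length of the gene itself cancels in it. The effective length of Heatr1 was 3751 to 3987 bases in itaconate libraries and 4079 to 4496 bases in control libraries. The libraries also differed in this respect. Gene length minus effective length had a median of 258.63 bases in control replicate 1, and of 229.21 to 239.05 bases in every other library. The part of gene length, and of control replicate 1, in these and the other changes was not tested.

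**Figure D5:**
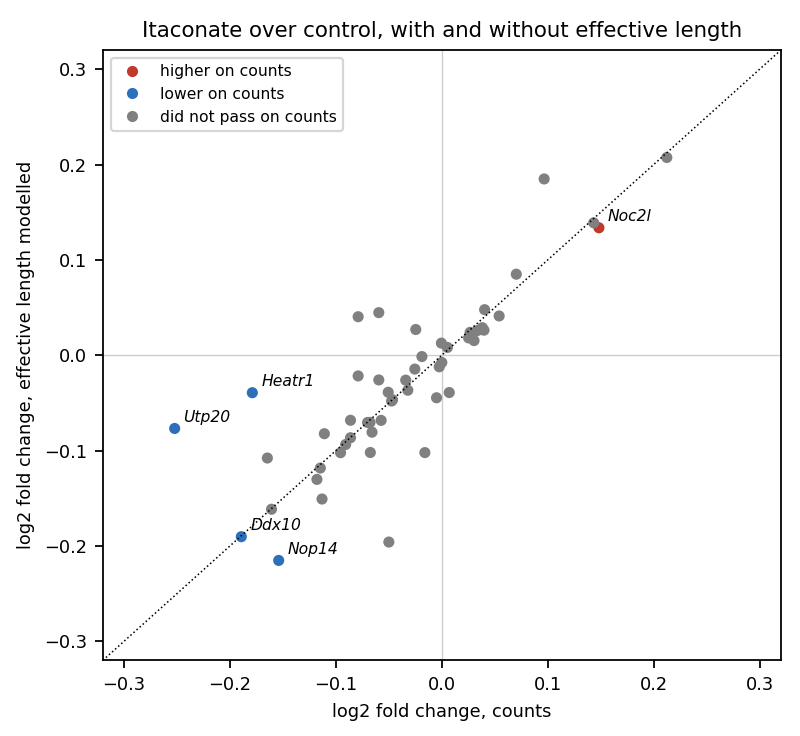
Log2 fold change (itaconate over control) of each of the 52 genes from counts (x axis) and with the authors' effective lengths modelled in each library (y axis). The dotted line marks equality. Utp20 (-0.25 on counts, -0.08 with length) and Heatr1 (-0.18 and -0.04) lie far above the line, and Ddx10, Noc2l and Nop14 keep a like or larger distance from 0.

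Several of these genes carry genes of small nucleolar RNAs within them. An annotated snoRNA or scaRNA gene lies within 8 of the 52 genes (15.38%), against 212 of 11126 protein-coding genes tested (1.91%), for 23 such genes in all. The hosts are Nop56 with 5, Nop58 with 4, Ncl, Gnl3 and Wdr43 with 3 each, Tsr1 and Ppan with 2 each, and Dkc1 with 1. None of the 8 hosts was called changed, against 12.0% of all genes. An exon overlaps an exon on the other strand in 20 of the 52 genes (38.46%), and 42 of 52 had whole expected counts in every library. Neither share was computed over all genes, so neither is given as a trait of the 52.

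The rest of the pathway was taken from 5 lists. Of 151 other ribosome biogenesis genes, all of which passed the filter, 3 were called higher, 9 lower and 139 did not pass (7.947% called, against 12.0% of all genes), with a median log2 fold change of -0.02. The other SSU processome and pre-40S genes held 4 lower and no higher of 42 (9.524% called), with a median of -0.04. Tsr2, a chaperone of the ribosomal protein eS26, fell, with 36.0, 37.4 and 34.5 CPM in itaconate libraries, against 42.7, 48.7 and 48.0 CPM in control libraries (-0.37 ± 0.07, edgeR adjusted p 0.0038), and was called in all 16 alternative analyses. Wdr3, of UTP-B, fell as well, with 130.5, 115 and 134 CPM in itaconate libraries, against 155, 146 and 155 CPM in control libraries (-0.26 ± 0.06, edgeR adjusted p 0.0103), and its call was lost with effective length modelled (-0.24, adjusted p 0.133) and in limma on TPM. Neither gene overlapped between the groups.

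Of 53 other pre-60S genes, 2 were called higher and 4 lower (11.32% called). Sbds, the pre-60S maturation factor mutated in Shwachman-Diamond syndrome, had 59.0, 59.5 and 53.7 CPM in itaconate libraries, against 68.5, 70.4 and 69.0 CPM in control libraries (-0.27 ± 0.06, edgeR adjusted p 0.0084). The helicase Ddx24 fell by 0.18 ± 0.05 on the log2 scale (edgeR adjusted p 0.0190). Nop53, a nucleolar factor that also binds the exosome cofactor MTR4, had 320.5, 338 and 327 CPM in itaconate libraries, against 239.8, 289 and 288 CPM in control libraries (0.27 ± 0.07, edgeR adjusted p 0.0207), and Spata5, an AAA ATPase that recycles pre-60S factors, rose by 0.21 ± 0.06 (edgeR adjusted p 0.0256). Of 18 other RNA polymerase I genes, 1 (5.556%) fell: Taf1d, of the SL1 initiation factor, by 0.20 ± 0.06 on the log2 scale (edgeR adjusted p 0.0341). Of 12 other snoRNP genes, 1 (8.333%) rose: Pih1d1, of the R2TP chaperone that assembles box C/D particles, had 35.9, 39.5 and 39.5 CPM in itaconate libraries, against 26.8, 30.7 and 34.1 CPM in control libraries (0.32 ± 0.09, edgeR adjusted p 0.0248). None of 26 genes of pre-rRNA cleavage and the exosome was called by edgeR or DESeq2. In edgeR's test 5 of them had an unadjusted p under 0.05, against 26.49% of all genes. These calls were not equally stable: of the 16 alternative analyses, Sbds was called in 15, Nop53 in 11, Ddx24 in 10, Taf1d and Pih1d1 in 9 each, and Spata5 in 8. Leaving out 1 library ended the call of Spata5 in 5 of 6 cases, of Taf1d and Pih1d1 in 4 each, of Ddx24 in 3, of Nop53 in 2, and of Sbds in 1 (without itaconate replicate 3, adjusted p 0.0552).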

How the data were processed

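RNA-seq tables of 6 libraries were used, 3 with itaconate and 3 with NaCl, grouped by their labels. The authors deposited expected counts and TPM per gene, per the file headers in the column format of RSEM, with an effective length for each gene. TPM, per the file headers, is the authors' count divided by effective length and scaled per library. FPKM, per the file headers also the authors' length-corrected value, was not used. Bowtie 0.12.2 and the builds mm8 and mm10 are named, without roles, in the submitters' processing notes. Other versions, the annotation and the strand setting: not given in the sources used here. In each library 5.99% to 6.93% of expected counts were not whole (tolerance 0.001), and all were rounded before testing.

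Genes were tested with edgeR 4.0.16 in R 4.3.3 (quasi-likelihood test, robust, two-sided, TMM scaling, minimum count 10, minimum total 15, no covariates), with Benjamini-Hochberg adjustment over 12350 genes. Fold changes are itaconate over control. The 52 genes, their roles and the other lists were chosen with earlier results of these data known. By rule, values of every library are given for called genes, for genes with an adjusted p from 0.05 to 0.10 and for 10 fixed genes, and up to 2 risers and 2 fallers are named per list. Further genes were named after their values were seen. Positions came from GENCODE M21 (GRCm38) and promoters from RefSeq (GRCm38.p6). Protein sequences were not used here. The 16 alternatives were other scalings and filters, DESeq2 1.42.0, limma 3.58.1 on log2(TPM + 1) and log2(TPM + 0.1), effective length as an offset, a replicate block and each library left out. The test was checked on simulated data. Libraries of a group differed by more than counting noise (chi-square per gene 4.89 to 16.9), so none was counted as a copy.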

Additional observations from a re-analysis of the deposited data

How the results depend on the processing

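Among the 52 genes, 1 was higher and 4 lower in the analysis reported. The numbers were 2 and 2 with upper quartile scaling, 0 and 4 with library totals only, 2 and 5 with no filter on low counts, 0 and 1 (Nop14) with effective length as an offset, and 0 and 0 in limma on log2(TPM + 1) and on log2(TPM + 0.1), where the median log2 fold change was -0.0995 and -0.1008. The cause was not tested. With 1 library left out, 0 genes were higher, 0 to 4 lower (0 without itaconate replicate 3), and the median ran from -0.0611 to -0.0254. Of the 52 genes, 31 kept their sign in all 16 alternatives, 8 were called in the reported analysis or any alternative, and no call changed direction.

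Of the other ribosome biogenesis genes, 3 were higher and 9 lower. The numbers were 1 and 2 with effective length and in limma on log2(TPM + 1), 0 and 2 on log2(TPM + 0.1), and 0 to 3 and 3 to 10 with 1 library left out. Over all genes 825 were higher and 662 lower, against 325 and 242 with effective length, 133 and 207 in limma on log2(TPM + 1), 141 and 215 on log2(TPM + 0.1), and 407 to 707 and 319 to 693 with 1 library left out.

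With the replicate number as a block, 3 of the 52 genes were higher and 5 lower, 6 and 19 of the other ribosome biogenesis genes, and 1315 and 1104 of all genes. Same-numbered libraries deviated together with correlations of 0.113, 0.0305 and 0.0034, and itaconate replicate 2 correlated best with control replicate 3 (0.0664), so the replicate block rests on a shared number only.

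The rule that looks for a library far from its group needs at least 4 samples and was not applied to groups of 3. Changes of single genes among the 52 were at most 1.191-fold, and leaving out 1 library ended each of the 5 calls in at least 2 of the 6 cases.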

Other observations

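Exosc6, which encodes a core subunit of the RNA exosome and was named after its values were seen, stood apart in the list of pre-rRNA cleavage and exosome genes. It had 5.49, 11.0 and 11.0 CPM in itaconate libraries, against 1.04, 0 and 0 CPM in control libraries. Its rounded expected counts were 111, 199 and 257 in itaconate libraries, against 28, 0 and 0 in control libraries. The groups did not overlap, and the edgeR adjusted p was 0.0634. In GENCODE M21 all 1326 exonic bases of Exosc6 lie within exons of Aars on the same strand, and Aars had expected counts of 6965 to 8878 in itaconate libraries and 8342 to 12267 in control libraries. Reads of the overlapped bases can belong to either gene, and the expected counts of Exosc6 were not whole in the 4 libraries in which they were above 0. The level of Exosc6 is uncertain in every library, its values at 0 included, and the part of the sharing in the difference was not tested.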
